A study of Homo sapiens with 40 samples.

Results

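The genes described here carry the names of the translation initiation factors, the proteins that bring the initiator tRNA, the mRNA and the ribosomal subunits together at the start of protein synthesis. They were taken as every row of the count table whose Ensembl identifier maps to a protein-coding symbol beginning EIF1, EIF2, EIF3, EIF4, EIF5 or EIF6, without the kinases EIF2AK1 to EIF2AK4 and the exon junction protein EIF4A3. The rule uses names and no measured value, and it found 51 of the 19962 genes in the table. It also takes in genes with other roles, such as the EIF4E-binding repressors EIF4EBP1 and EIF4EBP2 and the nuclear protein EIF1AD. All 51 are called initiation factor genes below.

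The series measured poly(A) RNA in 40 libraries of RKO cells, an established human colon carcinoma line, here with a Cas9 nuclease that doxycycline (Dox) induces. It concerns IGF2BP2 and IGF2BP3, RNA-binding proteins that bind many mRNAs. Each of 3 lines carried a pair of guide RNAs, against the non-coding locus AAVS1 (sgAAVS1), against IGF2BP2 (sgIGF2BP2) or against IGF2BP3 (sgIGF2BP3). All 40 cultures also received s4U, a uridine analogue that labels new RNA, at 250 µM for 2 hours, and the counts used here do not separate labelled from unlabelled RNA. The sgAAVS1 cells were given DMSO or Dox (250 ng/mL for 72 hours). The sgIGF2BP2 cells were given DMSO, Dox, a non-targeting siRNA (siControl) or an siRNA pool against IGF2BP2 (siIGF2BP2), and the sgIGF2BP3 cells DMSO, Dox, siControl or an siRNA pool against IGF2BP3 (siIGF2BP3), with siRNAs at 75 nM for 48 hours. Each of the 10 groups has 4 libraries, from 4 wells of cells. The cells were sorted pools with the guides, and Dox induces the nuclease in all 3 lines, so a Dox group holds edited and unedited alleles together. The labels do not tie the 4 wells of a group to separate days or cell stocks, so the p-values measure the spread between these wells.

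Initiation proceeds in steps that the families follow. EIF1 and EIF1A help the small ribosomal subunit find the start codon, EIF2 carries the initiator tRNA as a complex with GTP, and EIF2B recharges EIF2 with GTP. EIF3 is a large scaffold on the small subunit, EIF4E binds the mRNA cap, EIF4G links EIF4E to EIF3 and to the helicase EIF4A, and EIF5 and EIF5B act when the subunits join. EIF5A helps ribosomes through difficult stretches, and EIF6 keeps the large subunit from joining too early.

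Libraries held 10018181 to 24822807 counts (median 13468792), and the biological coefficient of variation over all genes was 3.79%. IGF2BP2 and IGF2BP3 were lower in every library in which they were targeted. IGF2BP2 was at 29.5 to 38.0 CPM (a library's counts scaled to a common total, for all groups alike) after Dox in sgIGF2BP2 cells against 83.8 to 86.7 with DMSO, and at 29.2 to 31.7 after siIGF2BP2 against 103 to 113 with siControl. IGF2BP3 was at 51.1 to 59.1 CPM after Dox in sgIGF2BP3 cells against 175 to 185 with DMSO, and at 22.6 to 26.4 after siIGF2BP3 against 164 to 174 with siControl. The control line was not without a change of its own: SPOP, which encodes the substrate adaptor of a ubiquitin ligase and is on 17q, was at 11.4, 13.0, 10.1 and 11.1 CPM with Dox in sgAAVS1 cells against 38.9, 36.5, 35.7 and 35.8 with DMSO (log2 change -1.68, SE 0.077, edgeR adjusted p = 4.86e-28), and no library of the other 8 groups was under 32.1 CPM. Of 250 tested genes from SPOP to the end of 17q, 130 fell and 1 rose in that comparison (median -0.17), and none of the 51 genes lies there. Of the markers checked, the epithelial KRT8, KRT18 and EPCAM and the intestinal CDX2 were expressed. CDH1, VIL1, KRT20, CDH17 and LGALS4, also of these classes, were at most at 0.303 CPM in any library and KRT20 had no count, while 0 of 2 endothelial, 0 of 3 fibroblast and 1 of 3 leukocyte markers (CD68) reached a mean of 1 CPM.

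Several initiation factor genes have near-identical copies, and a read that matches more than 1 gene can be split or dropped in counting. The share of 100-base windows (the read length) of a gene's principal transcript that also occur in a transcript of another gene was therefore computed from GENCODE 29. All windows of EIF4A1 were shared (100%), with read-through and overlapping transcripts at its own locus. For EIF3C and EIF3CL, which lie on chromosome 16, the shares were 95.1% and 97.1%, and for EIF4EBP3 69.4%. EIF3L followed at 33.2%, and the other 46 genes were at 18.4% or less. The coding sequences of EIF3C and EIF3CL had no differing base over 2739 aligned positions, with 3 gap positions. EIF5A and the intronless EIF5AL1 differed at 5 of 462 positions, EIF2S3 and EIF2S3B at 25 of 1416, and EIF1AX and EIF1AY at 34 of 432.

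The stretches below show where the coding sequences of EIF5A and EIF5AL1, and of EIF2S3 and EIF2S3B, differ most. Each is the 60-base coding stretch of a pair with the most differences, in GENCODE 29 transcripts (GRCh38), with the bases that differ in capitals and positions counted from the A of the start codon.
EIF5A, coding positions 74 to 133, plus strand of chromosome 17: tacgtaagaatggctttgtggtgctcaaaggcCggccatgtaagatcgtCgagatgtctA
EIF5AL1, coding positions 74 to 133, plus strand of chromosome 10: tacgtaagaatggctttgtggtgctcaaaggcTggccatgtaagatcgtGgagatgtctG
EIF2S3, coding positions 298 to 357, plus strand of chromosome X: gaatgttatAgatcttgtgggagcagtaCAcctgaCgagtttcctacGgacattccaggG
EIF2S3B, coding positions 298 to 357, plus strand of chromosome 12: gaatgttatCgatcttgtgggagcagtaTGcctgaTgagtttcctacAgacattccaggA
In the EIF5A stretch 3 of 60 bases differ, and in the EIF2S3 stretch 6 of 60. Of all 100-base windows, 10.3% of EIF5A, 7.83% of EIF5AL1, 10.0% of EIF2S3 and 18.4% of EIF2S3B also occur in transcripts of other genes. The rest, inside or outside the coding sequence, occur in no other gene. EIF5AL1 was counted at a mean of 95.1 CPM over the 40 libraries, and EIF2S3B at 2.39 CPM. Whether the counts of EIF5AL1 hold reads of EIF5A was not tested.

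Of the 51 genes, 48 had enough counts to be tested. The 3 others were EIF4EBP3, with 121 counts over all 40 libraries, and EIF4E1B and EIF1AY, with a total of 1 count each. Together the 51 genes took 0.976% ± 0.022 of a library's counts (SD, n = 40), between 0.918% and 1.02%. The share was 0.927% ± 0.0083 after siIGF2BP2 (n = 4), with a highest library of 0.937%, under the 0.976% ± 0.0041 with siControl in the same cells, whose lowest library was at 0.970%. No library of the other 9 groups lay under 0.952%. In bulk RNA, a lower level in some cells and a lower level in all cells cannot be told apart.

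Levels were compared between genes as CPM per kilobase of principal transcript, the mean of 40 libraries. The counts are per gene, so these values and their order depend on the transcript chosen. It had 1969 bases for EIF4G2 and 9949 for EIF4E3, and whether the cells use these transcripts was not tested. Without division by length, EIF4G2 was at 848 CPM and EIF5A at 692. EIF5A was highest at 458 CPM per kb, followed by EIF4G2, which encodes a relative of EIF4G without the EIF4E binding site, at 430. EIF3E reached 317 and EIF3I 276, EIF1 190, EIF4EBP1 140, EIF2S3 114 and EIF4H 109. Within the EIF3 complex the other tested subunits ranged from 29.5 for EIF3M to 227 for EIF3G. Only EIF3C, at 3.70, and EIF3CL, at 1.45, lay below that range, and they are the copies described above. EIF4A1, which encodes the main EIF4A helicase, was counted at 7.29 CPM per kb and EIF4A2 at 79.4. Since all windows of EIF4A1 are shared, its low value and those of EIF3C and EIF3CL cannot be read as low expression. The lowest of the other genes were EIF2S3B (1.49), EIF4E3 (1.75) and EIF5A2 (2.97).

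**Figure D1:**
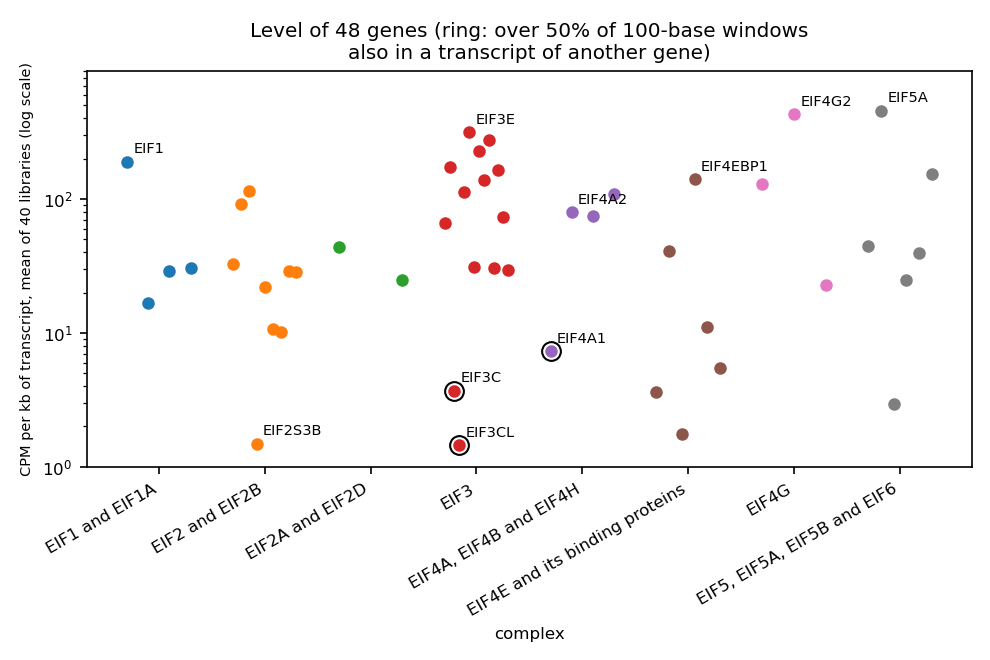
Mean level of the 48 tested genes over 40 libraries, in CPM per kb of principal transcript on a log axis, by complex, with 1 point per gene. EIF5A (458) and EIF4G2 (430) stand at the top, and the ringed EIF3C (3.70), EIF3CL (1.45) and EIF4A1 (7.29) share over 50% of their 100-base windows with another gene.

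Levels differed little between groups. The highest group mean was at most 1.44 times the lowest for any tested gene, a ratio reached by EIF5A2, and 1.08 times for EIF2S2. EIF1AX followed at 1.43. Of the 48 genes, 13 passed the test in none of the 7 comparisons of 2 groups described next, 15 in 1, 13 in 2, 5 in 3, and EIF5A in 4 and EIF6 in 5. The same numbers were not taken over all tested genes, so they do not show whether these genes passed more or less often. A gene is called here when its Benjamini-Hochberg adjusted p from edgeR's quasi-likelihood test, over all 11428 genes tested, is under 0.05, and fold changes are given on the log2 scale with their standard error (SE).

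**Figure D2:**
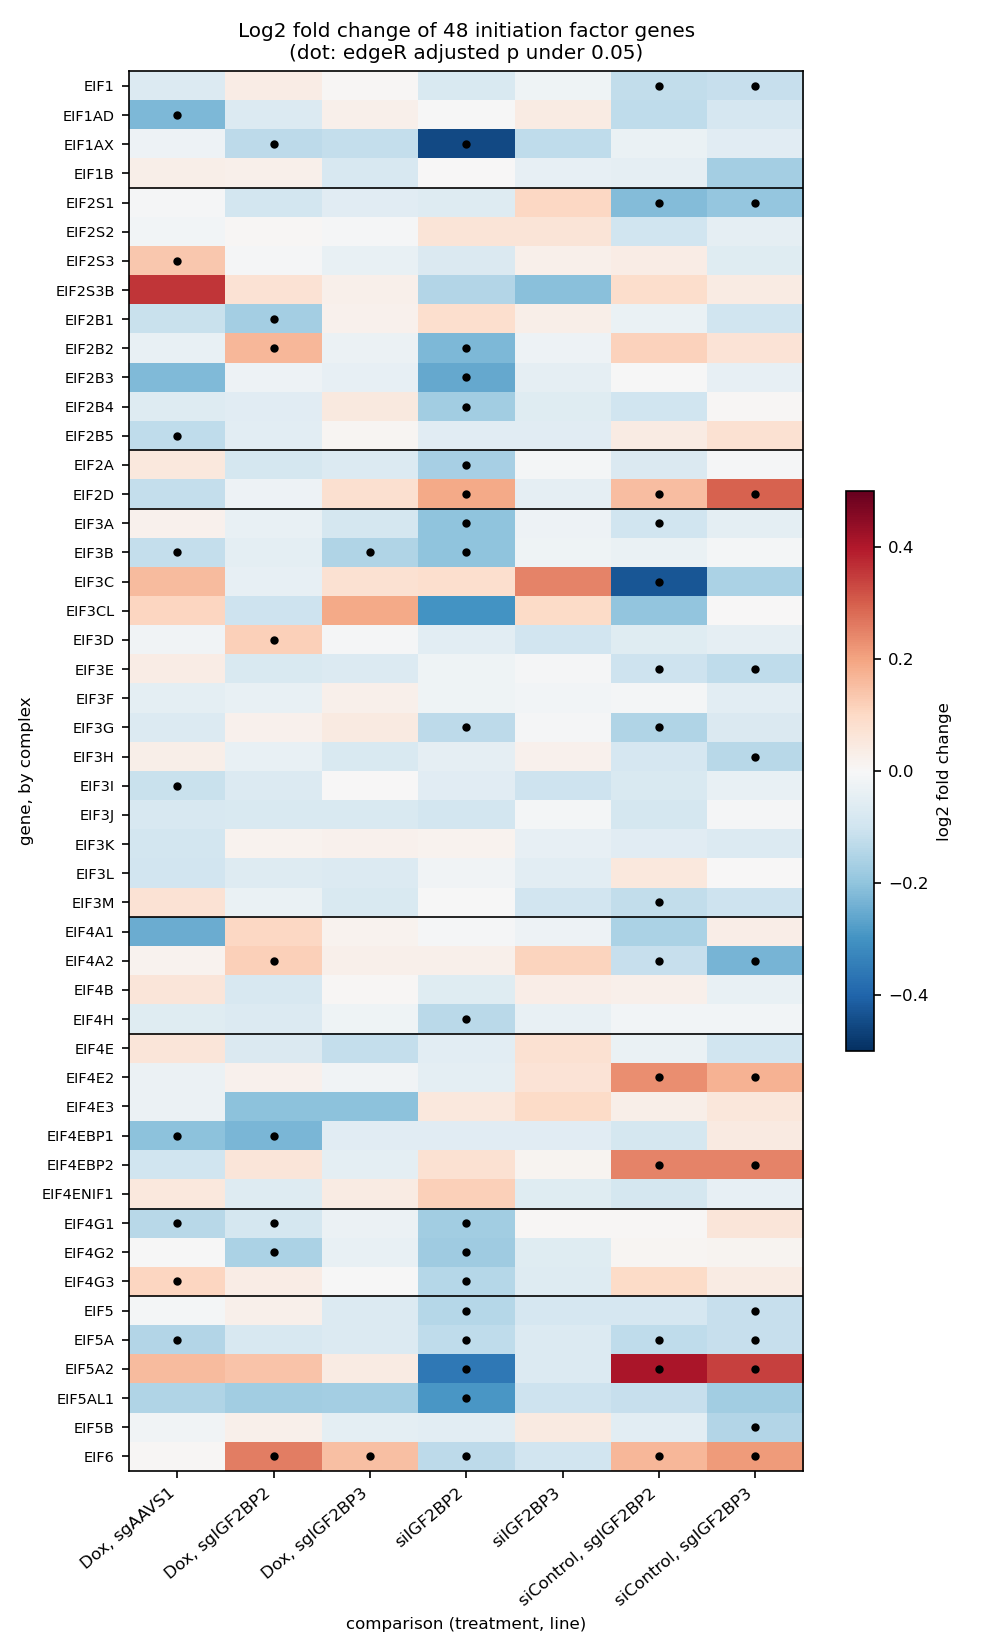
Log2 fold change of the 48 tested genes (vertical axis, by complex) in 7 comparisons of 2 groups (horizontal axis), with a black dot where the edgeR adjusted p was under 0.05. The siIGF2BP2 column holds 17 dots on the blue, lower side and 1 on the red, and the siIGF2BP3 column holds none.

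After the siIGF2BP2 pool, the EIF4G genes and most of the EIF5, EIF5A, EIF5B and EIF6 group were lower. So were some genes of every other complex except that of EIF4E and its binding proteins. Of 48 genes, 17 fell and 1 rose against siControl, while 18.4% of all tested genes rose and 18.4% fell in that comparison. The changes were negative for 38 of the 48, with a median of -0.06 against 0.01 over all tested genes. The 4 siIGF2BP2 libraries lay below all 4 siControl libraries for 19 of the 48 genes, against 15.6% of all tested genes. All 3 EIF4G genes fell, as did 5 of the 6 genes of the EIF5, EIF5A, EIF5B and EIF6 group. In EIF2 and EIF2B 3 of 9 genes fell, all of them subunits of EIF2B, and in EIF3 3 of 14. Of the 6 tested genes for EIF4E and its binding proteins none passed in this fit. With an offset for GC content and length, EIF4EBP1 passed as lower (log2 change -0.18, edgeR adjusted p = 1.45e-05). EIF4EBP2 passed as higher with that offset (log2 change 0.13, edgeR adjusted p = 0.00512).

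EIF1AX, which encodes the start codon scanning factor EIF1A, changed most. It was counted at 96.0, 103, 97.2 and 96.3 CPM after siIGF2BP2 and at 133, 133, 139 and 132 CPM with siControl. Every siIGF2BP2 library was thus below every siControl library, and below every library of the other 8 groups. The log2 change was -0.45 (SE 0.045, edgeR adjusted p = 3.41e-13), by which EIF1AX fell by 26.8%. It was the single initiation factor gene whose change passed a test against a threshold of 1.2-fold.

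EIF5A2, a paralogue of EIF5A, was at 14.4, 16.0, 14.7 and 14.8 CPM after siIGF2BP2 against 19.6, 18.8, 19.7 and 18.7 with siControl. No siIGF2BP2 library reached the siControl range, and the log2 change was -0.36 (SE 0.084, edgeR adjusted p = 0.000419). EIF5AL1 was at 77.9, 74.7, 88.6 and 71.2 CPM against 99.9, 91.7, 93.4 and 95.8, without overlap (log2 change -0.29, SE 0.074, edgeR adjusted p = 0.00123). EIF5A itself fell by 0.13 on the log2 scale (SE 0.036, edgeR adjusted p = 0.00324). Of the same group, EIF5 fell by 0.14 and EIF6 by 0.13, the latter with overlap and lost without siIGF2BP2 replicate 1 (edgeR adjusted p = 0.0641), and EIF5B did not pass (log2 change -0.05, SE 0.051, edgeR adjusted p = 0.452).

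Among the EIF2B subunits, EIF2B3 was at 13.7, 14.4, 15.5 and 14.1 CPM after siIGF2BP2 against 17.1, 16.1, 17.7 and 18.2 with siControl, without overlap. Its log2 change was -0.26 (SE 0.084, edgeR adjusted p = 0.0122). EIF2B2 was at 37.8, 40.7, 44.9 and 44.9 CPM against 50.0, 50.4, 46.2 and 50.9, also without overlap (log2 change -0.23, SE 0.051, edgeR adjusted p = 0.000259). EIF2B4 fell by 0.17 on the log2 scale. The EIF2 subunits themselves did not pass, with EIF2S1, the subunit that stress kinases phosphorylate, at a log2 change of -0.06 (SE 0.043, edgeR adjusted p = 0.267). DESeq2 did call EIF2S3 lower (log2 change -0.08, DESeq2 adjusted p = 0.0340), as did edgeR with the size factors of DESeq2 (edgeR adjusted p = 0.0484). EIF2A, a separate tRNA-binding factor, fell by 0.17.

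The EIF3 subunits that fell were EIF3A, EIF3B and EIF3G. EIF3A, the largest subunit, was at 394, 378, 370 and 379 CPM after siIGF2BP2 and at 427, 435, 446 and 442 with siControl (log2 change -0.20, SE 0.032, edgeR adjusted p = 3.08e-07). EIF3B, which holds the scaffold together with EIF3A, was at 462, 476, 490 and 480 CPM against 551, 540, 534 and 567 (log2 change -0.20, SE 0.032, edgeR adjusted p = 4.93e-07). Neither gene overlapped between the groups. EIF3CL had a fitted change of -0.30 that did not pass (SE 0.149, edgeR adjusted p = 0.111), on counts that its copy EIF3C makes uncertain.

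EIF4G1, the main EIF4G scaffold, was at 657, 661, 613 and 660 CPM after siIGF2BP2 against 729, 741, 717 and 735 with siControl. EIF4G2 was at 773, 798, 749 and 777 CPM against 887, 886, 873 and 860. Neither pair of groups overlapped, and the log2 changes were -0.17 (SE 0.030, edgeR adjusted p = 3.81e-06) and -0.18 (SE 0.029, edgeR adjusted p = 8.12e-07). EIF4G3 and EIF4H, a partner of the EIF4A helicase, fell by 0.14 each. EIF2D, which can deliver tRNA to the ribosome without GTP, was the gene that rose, at 56.0, 58.7, 66.5 and 58.3 CPM against 53.9, 48.6, 55.4 and 52.4. All 4 siIGF2BP2 libraries lay above the 4 siControl libraries (log2 change 0.19, SE 0.052, edgeR adjusted p = 0.00294).

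**Figure D3:**
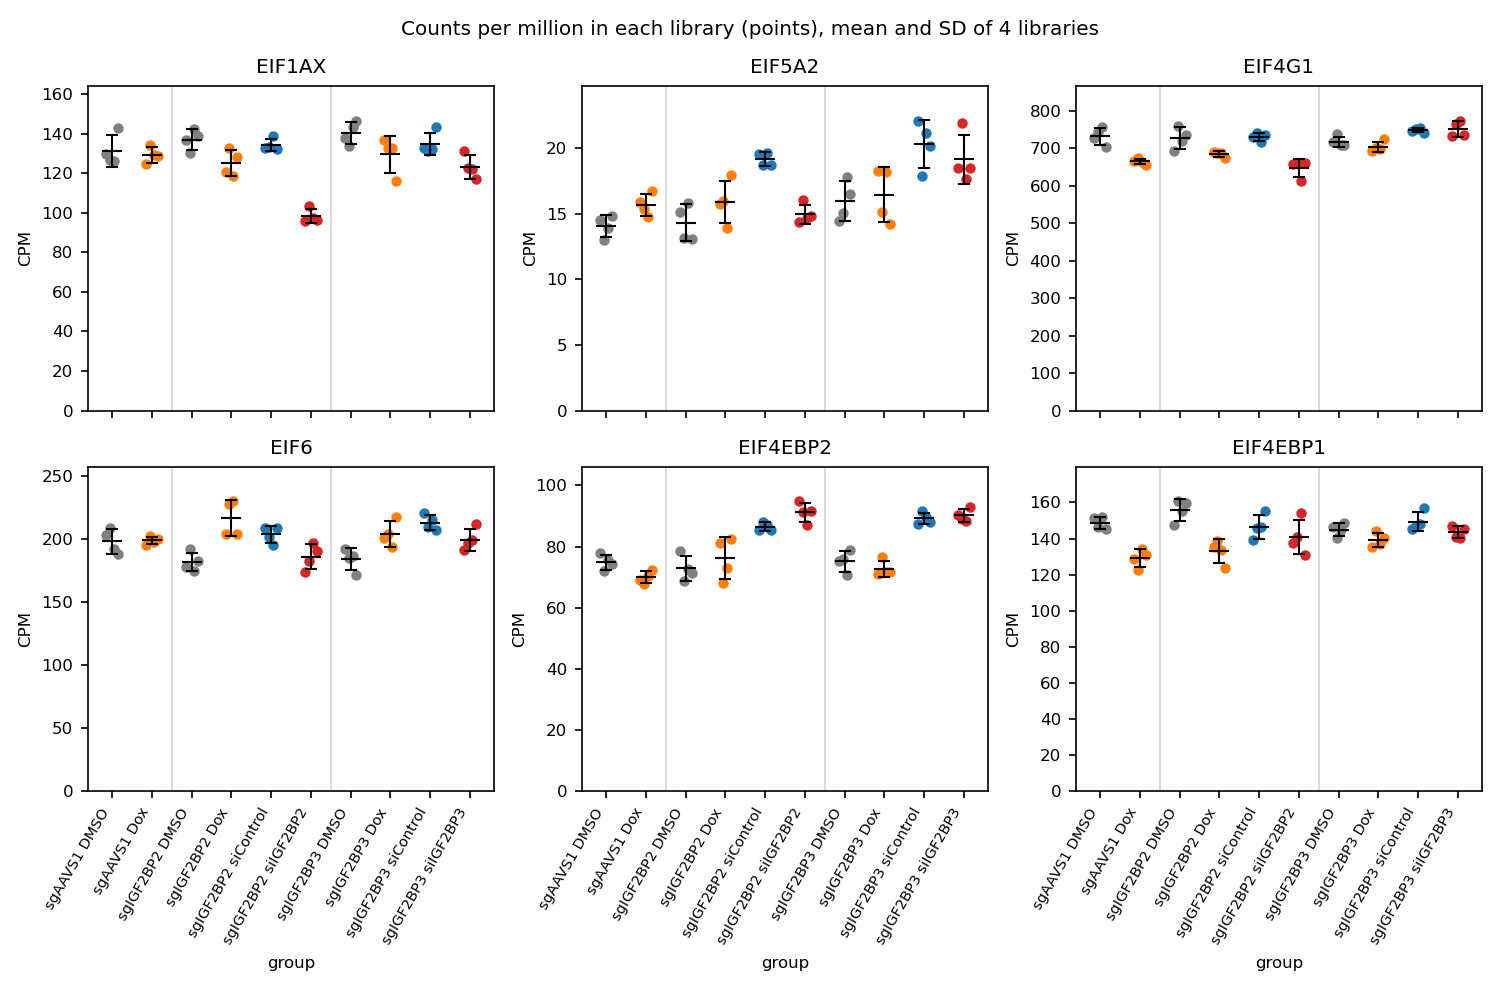
CPM of EIF1AX, EIF5A2, EIF4G1, EIF6, EIF4EBP2 and EIF4EBP1 in each of the 40 libraries, in 10 groups, with points for libraries and bars for the mean and SD of 4 (grey DMSO, orange Dox, blue siControl, red targeting siRNA). The siIGF2BP2 libraries of EIF1AX, at 96.0 to 103 CPM, lie below all others, and EIF4EBP2 is higher in both siControl groups than in both DMSO groups.

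After siIGF2BP3, no initiation factor gene passed by edgeR's quasi-likelihood test, in a comparison in which 0.936% of all tested genes rose and 1.40% fell. At an unadjusted p under 0.05 there were 9 of 48 (18.8%), against 13.8% of all tested genes. DESeq2 called 1 gene, EIF3I, a propeller-shaped EIF3 subunit, which was at 364, 380, 383 and 377 CPM after siIGF2BP3 and at 396, 400, 417 and 402 with siControl. The 2 groups did not overlap, and the log2 change was -0.10 (SE 0.033, edgeR adjusted p = 0.0799). A fit on these 8 libraries alone called EIF3I (edgeR adjusted p = 0.0162) and EIF1AX (edgeR adjusted p = 0.0322). EIF1AX was at 132, 123, 122 and 117 CPM after siIGF2BP3 and at 133, 131, 132 and 143 with siControl, where 1 siIGF2BP3 library lay within the siControl range (log2 change -0.13, SE 0.044, edgeR adjusted p = 0.119 over all 40 libraries).

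The effects of the siRNA pools were compared directly as the siIGF2BP3 effect minus the siIGF2BP2 effect, which needs a different cell line for each pool, so that line and pool cannot be told apart. The difference passed as positive for 6 genes and negative for 1, while it did so for 9.88% and 8.82% of all tested genes. EIF1AX had the greatest difference of the genes that passed, 0.32 (SE 0.063, edgeR adjusted p = 7.23e-05). Differences also passed for EIF4G1 at 0.18 (SE 0.043, edgeR adjusted p = 0.00123), EIF3B at 0.18 (edgeR adjusted p = 0.00245) and EIF3A at 0.18 (edgeR adjusted p = 0.00229). After siIGF2BP3, EIF4G1 was at 733, 766, 773 and 735 CPM against 747, 751, 753 and 742 with siControl, and EIF3B at 523, 533, 558 and 543 against 547, 551, 548 and 544, so these groups overlapped.

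EIF2B2 differed by 0.20 (SE 0.072, edgeR adjusted p = 0.0403), EIF4G2 by 0.12 (SE 0.041, edgeR adjusted p = 0.0336) and EIF2D by -0.23 (SE 0.074, edgeR adjusted p = 0.0199). These 3 calls depended on single libraries, and in separate fits that each left out 1 of the 16 libraries, EIF2B2 was lost in 8, EIF4G2 in 8 and EIF2D in 4, with adjusted p up to 0.126, 0.0615 and 0.0894. The libraries concerned were sgIGF2BP2 siControl replicates 1, 2 and 4, siIGF2BP2 replicates 1 and 2, sgIGF2BP3 siControl replicate 1 and siIGF2BP3 replicates 3 and 4 for EIF2B2. For EIF4G2 they were sgIGF2BP2 siControl replicates 1 and 2, siIGF2BP2 replicate 3, sgIGF2BP3 siControl replicates 1 and 2 and siIGF2BP3 replicates 1, 2 and 3, and for EIF2D replicate 2 of both siControl groups, siIGF2BP2 replicate 3 and sgIGF2BP3 siControl replicate 3. EIF2B2 was also lost with no filter on low counts (0.0626), in a fit on the 4 groups alone (0.0530) and with an offset for GC content and length (0.0866), and EIF4G2 with no filter (0.0707). EIF5A2 differed by 0.29 without passing (SE 0.117, edgeR adjusted p = 0.071), as did EIF2B3 by 0.21 (SE 0.119, edgeR adjusted p = 0.226).

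**Figure D4:**
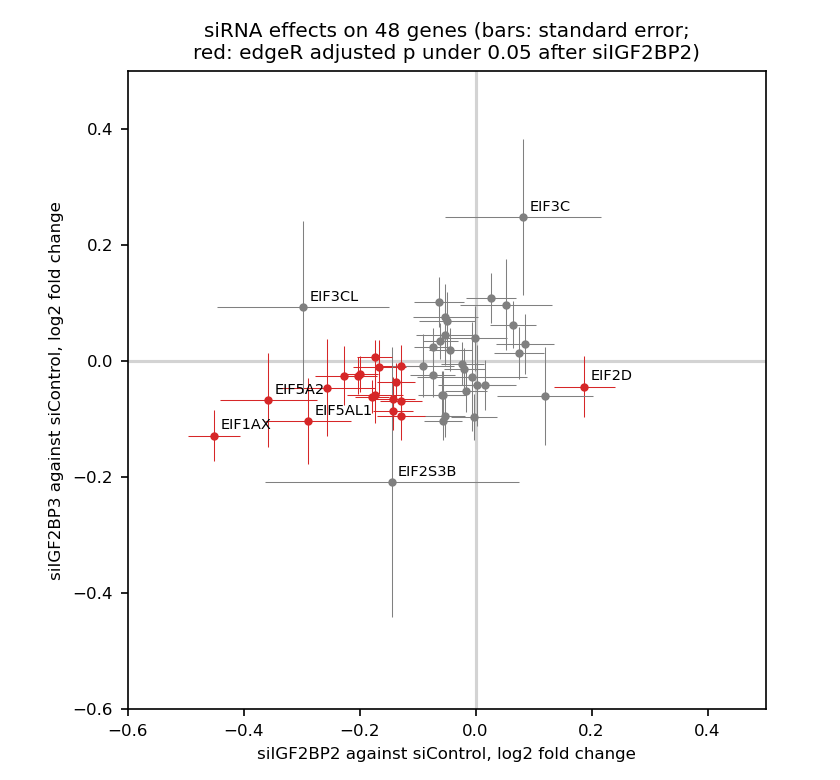
Log2 fold change after siIGF2BP2 (horizontal axis) and after siIGF2BP3 (vertical axis) for the 48 tested genes, each against siControl in its own line, with bars of 1 SE and genes called after siIGF2BP2 in red. EIF1AX lies at -0.45 and -0.13, and all red points but that of EIF2D are left of 0.

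Induction of Cas9 was compared with DMSO in each line. In the control line, sgAAVS1, 2 initiation factor genes rose and 7 fell, where 7.25% of all tested genes rose and 8.68% fell. EIF4EBP1, a repressor that binds EIF4E, was at 129, 122, 134 and 131 CPM with Dox and at 151, 147, 152 and 145 with DMSO. EIF1AD, a nuclear protein with an EIF1A-like fold, was at 45.4, 46.5, 41.7 and 46.2 CPM against 52.4, 57.0, 50.5 and 50.5. Neither pair of groups overlapped, with log2 changes of -0.20 (SE 0.040, edgeR adjusted p = 0.000151) and -0.22 (SE 0.055, edgeR adjusted p = 0.00248). EIF5A was at 661, 672, 690 and 684 CPM against 753, 780, 754 and 708, and EIF4G1 at 665, 674, 664 and 656 against 728, 744, 756 and 703, again without overlap. Their log2 changes were -0.15 (SE 0.036, edgeR adjusted p = 0.0026) and -0.14 (SE 0.030, edgeR adjusted p = 0.000591).

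EIF3B was at 512, 525, 508 and 525 CPM with Dox in sgAAVS1 cells and at 548, 574, 583 and 543 with DMSO, a log2 change of -0.12 (SE 0.032, edgeR adjusted p = 0.00575). EIF3I fell by 0.11 (SE 0.033, edgeR adjusted p = 0.0124), a call lost without replicate 2 of either group (up to 0.0531). EIF2S3, the subunit of EIF2 that binds GTP and the tRNA, rose from 321, 319, 314 and 347 CPM to 352, 365, 350 and 361 (log2 change 0.13, SE 0.032, edgeR adjusted p = 0.00212). The groups did not overlap for these 3 genes. Of the 100-base windows of the EIF2S3 transcript, 10.0% also occur in transcripts of other genes.

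EIF4G3 and EIF2B5 passed less firmly. EIF4G3 was at 142, 136, 132 and 145 CPM with Dox against 129, 126, 128 and 131, and EIF2B5, the catalytic subunit of EIF2B, at 68.5, 70.4, 71.0 and 70.9 against 79.0, 81.9, 72.2 and 73.3. The groups did not overlap, at log2 changes of 0.11 (SE 0.038, edgeR adjusted p = 0.0373) and -0.13 (SE 0.042, edgeR adjusted p = 0.0312). In separate fits, EIF4G3 was lost without DMSO replicate 1, 2 or 3 or Dox replicate 1 or 4 (edgeR adjusted p up to 0.164), and EIF2B5 without replicate 1 or 2 of either group (edgeR adjusted p up to 0.172). Both were also lost with no filter on low counts (0.0663 and 0.0702) and with an offset for GC content and length (0.0788 and 0.0594), and EIF2B5 in a fit on these 8 libraries alone (0.0597). EIF4A1 had a fitted change of -0.25 that did not pass (SE 0.093, edgeR adjusted p = 0.0582), from 15.3, 14.1, 14.5 and 13.8 CPM with DMSO to 12.3, 12.5, 12.1 and 11.7 with Dox.

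In sgIGF2BP2 cells, Dox was followed by 4 rises and 5 falls, where 10.0% of all tested genes rose and 10.4% fell. EIF6 rose most, at 204, 228, 230 and 204 CPM with Dox against 178, 192, 175 and 182 with DMSO, without overlap (log2 change 0.26, SE 0.041, edgeR adjusted p = 2.12e-06). EIF2B2 was at 52.7, 48.1, 50.5 and 53.5 CPM against 46.5, 43.3, 47.2 and 44.6, and EIF3D, a subunit that can bind the cap itself, at 266, 265, 277 and 273 against 241, 251, 251 and 252. Both rose without overlap, by 0.17 (SE 0.051, edgeR adjusted p = 0.0127) and 0.12 (SE 0.035, edgeR adjusted p = 0.0101). EIF4A2 was at 164, 164, 161 and 179 CPM against 169, 144, 152 and 150, and these groups overlapped (log2 change 0.12, SE 0.042, edgeR adjusted p = 0.0347). EIF4A2 lies on 3q beyond IGF2BP2, where the 48 tested genes had a median change of -0.08 in this comparison, with 3 higher and 10 lower, and 0.061 with Dox in sgAAVS1 cells.

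EIF4EBP1, which had also fallen in sgAAVS1 cells, was the gene that fell most here, at 135, 139, 134 and 123 CPM with Dox against 148, 161, 155 and 160 with DMSO in sgIGF2BP2 cells (log2 change -0.23, SE 0.040, edgeR adjusted p = 1.15e-05). EIF4G2 was at 805, 751, 776 and 792 CPM against 894, 851, 883 and 856 (log2 change -0.16, SE 0.029, edgeR adjusted p = 3.02e-05). EIF2B1 was at 48.4, 52.6, 50.1 and 47.6 CPM against 56.3, 53.2, 58.3 and 55.4 (log2 change -0.17, SE 0.051, edgeR adjusted p = 0.0109). The groups did not overlap for these 3 genes. EIF4G1 was at 690, 687, 689 and 674 CPM against 692, 760, 720 and 736, just without overlap (log2 change -0.09, SE 0.030, edgeR adjusted p = 0.0347). EIF1AX was at 121, 133, 118 and 128 CPM against 137, 130, 142 and 139, with overlap (log2 change -0.13, SE 0.044, edgeR adjusted p = 0.0239).

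Calls of 5 of these 9 genes rested on single libraries in fits that each left one out. EIF4A2 was lost without DMSO replicate 2, 3 or 4 or Dox replicate 4 (edgeR adjusted p up to 0.206), and EIF1AX without DMSO replicate 3 or 4 or Dox replicate 1 or 3 (up to 0.107). EIF4G1 was lost without DMSO replicate 2 or 4 or Dox replicate 3 or 4 (up to 0.158). EIF2B2 was lost without Dox replicate 4 (0.0587) and EIF2B1 without DMSO replicate 3 (0.0685). A fit on these 8 libraries alone lost EIF4A2 (0.0914) and EIF4G1 (0.114), and EIF4G1 was also lost with no filter on low counts (0.0586).

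In sgIGF2BP3 cells, Dox was followed by 1 rise and 1 fall, where 1.64% of all tested genes rose and 1.01% fell. EIF3B was at 492, 483, 497 and 518 CPM with Dox against 564, 547, 542 and 554 with DMSO, without overlap (log2 change -0.15, SE 0.032, edgeR adjusted p = 0.00243). EIF3B lies on 7p between IGF2BP3 and the chromosome end, where the 79 tested genes had a median change of -0.15, with 0 higher and 20 lower. The 79 genes had a median of 0.0022 with Dox in sgAAVS1 cells and 0.034 in sgIGF2BP2 cells. EIF6 was at 201, 204, 194 and 218 CPM with Dox against 192, 185, 187 and 172, just without overlap (log2 change 0.15, SE 0.041, edgeR adjusted p = 0.0306). The call was lost without DMSO replicate 2, 3 or 4 or Dox replicate 2 or 4 (edgeR adjusted p up to 0.224).

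The Dox effects of the targeting lines were tested against that of sgAAVS1, with the sgAAVS1 libraries shared by both tests. Dox in sgAAVS1 cells came with the lower SPOP and 17q levels given above, so a difference from that line can hold a change in either line, and the part of SPOP in these differences was not tested. In sgIGF2BP2 cells the difference passed as positive for 1 gene and negative for 3, where 4.01% and 2.97% of all tested genes did. For EIF6 it was 0.25 (SE 0.059, edgeR adjusted p = 0.00353), and EIF6 was at 204, 209, 192 and 188 CPM with DMSO and at 196, 203, 198 and 200 with Dox in sgAAVS1 cells. For EIF4G2 it was -0.16 (SE 0.041, edgeR adjusted p = 0.0113), with 822, 842, 845 and 880 CPM (DMSO) and 853, 833, 860 and 839 CPM (Dox) in sgAAVS1 cells. EIF6 and EIF4G2 thus overlapped between Dox and DMSO in the control line and not in the sgIGF2BP2 line, and both calls were kept without any 1 of the 16 libraries. The fall of EIF4EBP1 did not differ between the lines at this precision (difference -0.02, SE 0.057, edgeR adjusted p = 0.854).

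EIF4B, an activator of the EIF4A helicase, differed by -0.14 (SE 0.044, edgeR adjusted p = 0.035), and EIF2S3 by -0.14 (SE 0.046, edgeR adjusted p = 0.0499). EIF4B was at 294, 307, 280.0 and 294 CPM with Dox and 313, 311, 313 and 305 with DMSO in sgIGF2BP2 cells, and at 306, 332, 321 and 320 with Dox and 310, 297, 305 and 311 with DMSO in sgAAVS1 cells. The EIF4B call was lost in 8 of the 16 fits that left out 1 library (edgeR adjusted p up to 0.110), namely without sgAAVS1 DMSO replicate 2 or 3, sgAAVS1 Dox replicate 2, 3 or 4, sgIGF2BP2 DMSO replicate 1 or 3 or sgIGF2BP2 Dox replicate 3. The EIF2S3 call was lost in 13 of them (up to 0.161), and was kept without sgAAVS1 DMSO replicate 4 and without sgIGF2BP2 DMSO replicate 2 or Dox replicate 4. Both were lost with no filter on low counts (0.0684 and 0.0706) and in a fit on the 4 groups alone (0.0717 and 0.0852). With the GC and length offset EIF2S3 was lost as well (0.147), at a difference of -0.09.

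In sgIGF2BP3 cells the difference passed as positive for 1 gene and negative for 1, where 4.53% and 3.25% of all tested genes did. EIF1AD differed by 0.25 (SE 0.078, edgeR adjusted p = 0.0343), at 49.8, 50.2, 50.7 and 49.0 CPM with Dox and 49.1, 48.2, 49.7 and 49.3 with DMSO in sgIGF2BP3 cells. EIF2S3 differed by -0.17 (SE 0.046, edgeR adjusted p = 0.0132), at 329.9, 325, 332 and 317 CPM with Dox and 334, 332, 324 and 346 with DMSO. Both genes overlapped between Dox and DMSO here, and it was in sgAAVS1 cells that they had changed. Both calls ended with the GC and length offset (edgeR adjusted p = 0.0507 and 0.145). EIF2S3 was lost without sgIGF2BP3 Dox replicate 4 (0.0502). EIF1AD was lost without sgAAVS1 DMSO replicate 2, sgAAVS1 Dox replicate 1 or 3, sgIGF2BP3 DMSO replicate 2 or 4 or sgIGF2BP3 Dox replicate 2 or 4 (up to 0.112). EIF3B did not differ between the lines beyond its error (difference -0.03, SE 0.045, edgeR adjusted p = 0.731).

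Cas9 induction and siRNA against IGF2BP2 share no library and could be set side by side. Of the 9 genes called with Dox in sgIGF2BP2 cells and the 18 called after siIGF2BP2, 5 were called in both. How many of all tested genes were called in both was not counted, so this overlap has no background beside it. EIF1AX, EIF4G1 and EIF4G2 fell in both, and EIF2B2 and EIF6 rose with Dox and fell after siIGF2BP2. For EIF6 the siControl libraries that siIGF2BP2 was compared with were themselves higher than DMSO, by 0.17. Its lowest mean of the 10 groups, 182 CPM, was with DMSO in sgIGF2BP2 cells, so its siIGF2BP2 mean was not below that. Over the 48 genes Pearson's r between the fold changes was 8.9e-05 and Spearman's rho 0.092, against an r of 0.13 over all tested genes. Of EIF1AX, EIF4G1 and EIF4G2, the difference from the sgAAVS1 line was called for EIF4G2 and not for EIF1AX (-0.11, SE 0.062, edgeR adjusted p = 0.327) or EIF4G1 (0.05, SE 0.043, edgeR adjusted p = 0.507).

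The siControl and DMSO groups of a line differ in transfection, in solvent and in the length of treatment, which cannot be told apart. In sgIGF2BP2 cells 5 initiation factor genes were higher with siControl and 9 lower, where 10.2% of all tested genes were higher and 8.16% lower. In sgIGF2BP3 cells 5 were higher and 8 lower, where 10.9% and 8.54% were. The 2 comparisons share no library. The 5 higher genes were EIF5A2, EIF4EBP2, EIF4E2, EIF6 and EIF2D in both lines, and 5 lower ones, EIF1, EIF2S1, EIF3E, EIF4A2 and EIF5A, were also called in both. Fold changes had the same sign for 42 of 48 genes, and Pearson's r over the 48 genes was 0.79 (Spearman's rho 0.66), against an r of 0.54 over all 11428 tested genes. Shared calls and shared signs were not counted over all tested genes.

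EIF5A2 was at 19.6, 18.8, 19.7 and 18.7 CPM with siControl against 15.1, 13.1, 15.8 and 13.1 with DMSO in sgIGF2BP2 cells, and at 22.1, 17.84, 21.2 and 20.1 against 14.4, 15.1, 17.81 and 16.5 in sgIGF2BP3 cells. Neither pair of groups overlapped, the latter just so, and the log2 changes were 0.41 (SE 0.082, edgeR adjusted p = 0.000154) and 0.34 (SE 0.083, edgeR adjusted p = 0.00157). The siControl libraries of sgIGF2BP2 cells are the ones siIGF2BP2 was compared with, and the siIGF2BP2 level of EIF5A2, 15.0 ± 0.722 CPM, was close to the 14.3 ± 1.40 with DMSO (SD, n = 4 each).

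Of the 6 tested genes for EIF4E and its binding proteins, 2 were higher with siControl in each line and 0 lower, and EIF4EBP1 was not called in either. EIF4EBP2, which like EIF4EBP1 holds EIF4E away from EIF4G, was at 85.4, 88.2, 87.2 and 85.4 CPM against 78.5, 68.9, 72.8 and 71.3 in sgIGF2BP2 cells and at 87.4, 91.6, 89.8 and 88.1 against 75.2, 75.9, 70.7 and 78.8 in sgIGF2BP3 cells. The groups did not overlap in either line, and the log2 change was 0.25 in both (SE 0.044 and 0.045, edgeR adjusted p = 1.88e-05 and 1.85e-05). EIF4E2, a cap-binding protein that acts in repression, was at 70.6, 74.6, 73.1 and 74.0 CPM against 60.1, 61.1, 62.7 and 64.5, and at 66.7, 71.4, 67.0 and 69.8 against 61.1, 60.4, 61.6 and 61.3. It was higher in every siControl library, by 0.23 (SE 0.048, edgeR adjusted p = 0.000223) and 0.17 (SE 0.049, edgeR adjusted p = 0.00779). EIF4E itself did not pass in either line, at -0.03 in sgIGF2BP2 cells (SE 0.055, edgeR adjusted p = 0.737).

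EIF6 was at 209, 202, 195 and 209 CPM with siControl against 178, 192, 175 and 182 in sgIGF2BP2 cells, and at 221, 210, 215 and 207 against 192, 185, 187 and 172 in sgIGF2BP3 cells. EIF2D was at 53.9, 48.6, 55.4 and 52.4 CPM against 45.9, 49.2, 48.1 and 45.8, and at 52.0, 57.3, 58.1 and 53.9 against 45.1, 46.7, 44.2 and 44.6. EIF2D thus overlapped in sgIGF2BP2 cells, and the other 3 pairs of groups did not overlap. The log2 changes of EIF6 were 0.17 (SE 0.041, edgeR adjusted p = 0.00192) and 0.21 (SE 0.041, edgeR adjusted p = 7.54e-05), and those of EIF2D 0.15 (SE 0.053, edgeR adjusted p = 0.0312) and 0.30 (SE 0.054, edgeR adjusted p = 2.34e-05). In sgIGF2BP2 cells the EIF2D call was lost without replicate 1 or 4 of DMSO or replicate 1 or 3 of siControl (edgeR adjusted p up to 0.111).

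Of the genes lower with siControl, EIF2S1 was at 139, 135, 140 and 136 CPM against 170, 150, 161 and 158 with DMSO in sgIGF2BP2 cells, and at 133, 131, 138 and 140 against 145, 158, 157 and 162 in sgIGF2BP3 cells. The groups did not overlap in either line, with log2 changes of -0.22 (SE 0.043, edgeR adjusted p = 9.27e-05) and -0.19 (SE 0.043, edgeR adjusted p = 0.000524). EIF4A2 was at 153, 135, 138 and 141 CPM against 169, 144, 152 and 150 in sgIGF2BP2 cells, with overlap, and at 142, 135, 134 and 129 against 168, 152, 159 and 155 in sgIGF2BP3 cells, without. Its log2 changes were -0.12 (SE 0.042, edgeR adjusted p = 0.0433) and -0.23 (SE 0.043, edgeR adjusted p = 3.07e-05). The EIF4A2 call in sgIGF2BP2 cells was lost with the GC and length offset (0.0602) and without DMSO replicate 1 or 3 or siControl replicate 2, 3 or 4 (up to 0.298). EIF5A was at 685, 668, 659 and 689 CPM against 768, 739, 724 and 716, and at 710, 671, 690 and 645 against 758, 753, 729 and 704, with overlap only in sgIGF2BP3 cells. EIF5A fell by 0.13 (edgeR adjusted p = 0.00781) and 0.12 (edgeR adjusted p = 0.0145), the latter lost without DMSO replicate 1 or 2 or siControl replicate 4 (up to 0.0897).

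EIF1 was at 429, 424, 438 and 434 CPM with siControl against 479, 453, 473 and 476 in sgIGF2BP2 cells (log2 change -0.12, SE 0.038, edgeR adjusted p = 0.014), and fell by 0.11 in sgIGF2BP3 cells (edgeR adjusted p = 0.027), where the call was lost without DMSO replicate 3 or 4 or siControl replicate 1 or 2 (up to 0.114). Of EIF3, 5 of 14 genes fell in sgIGF2BP2 cells and 2 in sgIGF2BP3 cells, with EIF3E called in both. EIF3E was at 483, 472, 501 and 477 CPM against 547, 483, 528 and 516 in sgIGF2BP2 cells, with overlap, and at 457, 463, 466 and 488.6 against 504, 488.8, 517 and 541 in sgIGF2BP3 cells, just without overlap (log2 changes -0.10 and -0.13, edgeR adjusted p = 0.0427 and 0.00841). The former call was lost in 6 of 8 fits that left out 1 library, all but those without DMSO replicate 2 and siControl replicate 3 (up to 0.195). The latter was lost without DMSO replicate 4 (0.0677) and with the GC and length offset (0.182). EIF3H fell in sgIGF2BP3 cells, at 518, 503, 515 and 539 CPM against 559, 551, 579.8 and 595 (log2 change -0.14, SE 0.037, edgeR adjusted p = 0.00454).

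EIF3G, at 235, 240.4, 232 and 236 CPM with siControl against 249, 280.3, 261 and 258 with DMSO in sgIGF2BP2 cells, fell without overlap (log2 change -0.15, SE 0.036, edgeR adjusted p = 0.00131). EIF3M was at 142, 142, 145 and 146 CPM against 168, 152, 156 and 149, a fall of 0.12 (SE 0.039, edgeR adjusted p = 0.0175) that was lost without DMSO replicate 1 or siControl replicate 1 or 2 (up to 0.131). EIF3C had the most negative fitted change of the 48 genes in sgIGF2BP2 cells, -0.43 (SE 0.127, edgeR adjusted p = 0.0108), at 8.72, 8.72, 10.8 and 11.9 CPM against 10.3, 11.9, 14.9 and 15.5. Its groups overlapped, its windows are shared with EIF3CL as given above, and the call was lost with DESeq2 (adjusted p = 0.0629) and without DMSO replicate 3 or 4 or siControl replicate 1 or 2 (up to 0.0927). EIF5B was at 216, 219, 188 and 242 CPM with siControl against 224, 243, 239 and 252 with DMSO in sgIGF2BP3 cells, with overlap (log2 change -0.15, SE 0.051, edgeR adjusted p = 0.0343). It was lost in 6 of 8 fits that left out 1 library, all but those without DMSO replicate 1 and siControl replicate 4 (up to 0.289), with DESeq2 (0.0887) and with the GC and length offset (0.0808).

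**Figure D5:**
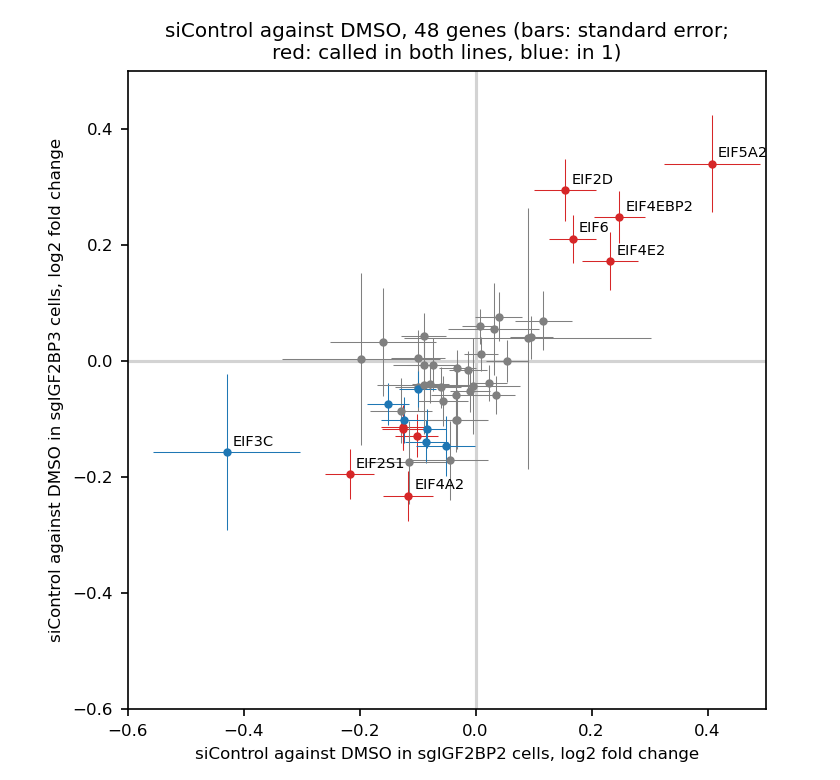
Log2 fold change of siControl against DMSO in sgIGF2BP2 cells (horizontal axis) and in sgIGF2BP3 cells (vertical axis) for the 48 tested genes, with bars of 1 SE, red where called in both lines and blue where called in 1. EIF5A2 lies at 0.41 and 0.34, EIF4EBP2 at 0.25 on both axes, and EIF2S1 at -0.22 and -0.19.

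Genes that act with the initiation factors were read from 3 lists. Of 46 tested partners and regulators of initiation (of 47 listed), 4 rose and 15 fell after siIGF2BP2, with a median of -0.04. Of all tested genes 18.4% rose and 18.4% fell, with a median of 0.01. Among them, RPS6KB1, the kinase S6K1 downstream of mTOR, had a log2 change of -0.56 (SE 0.070, edgeR adjusted p = 6.24e-10), and BZW1, a regulator that competes with EIF5, one of -0.53 (SE 0.040, edgeR adjusted p = 2.29e-18). Both differed from their change after siIGF2BP3, by 0.53 (edgeR adjusted p = 2.73e-05) and 0.51 (edgeR adjusted p = 3.31e-11). After siIGF2BP3, 0 of the 46 rose and 4 fell, against 0.936% and 1.40% of all tested genes, with EIF2AK4, the kinase GCN2, at -0.29 (SE 0.042, edgeR adjusted p = 1.21e-06). In the siControl comparisons 3 and 3 changed in sgIGF2BP2 cells and 6 and 6 in sgIGF2BP3 cells, higher and lower, against 10.2% and 8.16%, and 10.9% and 8.54%, of all tested genes. MKNK2, which phosphorylates EIF4E, was higher with siControl by 0.27 in both (edgeR adjusted p = 1.92e-08 and 2.75e-08).

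With Dox, of the same 46 genes 4 rose and 8 fell in sgAAVS1 cells, 3 rose and 6 fell in sgIGF2BP2 cells, and 0 rose and 3 fell in sgIGF2BP3 cells. Of all tested genes, 7.25% rose and 8.68% fell, 10.0% rose and 10.4% fell, and 1.64% rose and 1.01% fell, in the same order. PDCD4, an inhibitor of EIF4A, rose in sgAAVS1 cells by 0.35 (SE 0.058, edgeR adjusted p = 5.91e-06) and in sgIGF2BP2 cells by 0.27 (SE 0.058, edgeR adjusted p = 0.000226). RPTOR, a subunit of the mTOR kinase complex, fell by 0.28 in sgAAVS1 cells (SE 0.042, edgeR adjusted p = 5.68e-07). RPTOR lies on 17q beyond SPOP, in the region described above.

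Of 12 tested elongation and termination factors (of 14 listed), 3 fell and 0 rose after siIGF2BP2, against 18.4% of all tested genes in each direction. They were HBS1L (-0.53, SE 0.047, edgeR adjusted p = 5.25e-15), GSPT1 (-0.35, SE 0.033, edgeR adjusted p = 7.39e-14) and ETF1 (-0.24, SE 0.030, edgeR adjusted p = 8.05e-10). GSPT1 and ETF1 encode the release factors eRF3 and eRF1, and HBS1L acts on stalled ribosomes. After siIGF2BP3 none of the 12 passed. Of 12 tested targets of the integrated stress response, which follows phosphorylation of EIF2S1, 2 rose and 1 fell after siIGF2BP2, against the same 18.4% and 18.4%, and none passed after siIGF2BP3. With Dox in sgIGF2BP2 cells, 3 rose and 2 fell, against 10.0% and 10.4% of all tested genes. Changes of the 12 ran from -0.31 to 0.93, the latter for DDIT4 (SE 0.143, edgeR adjusted p = 7.47e-07). DDIT4 was counted at a mean of 5.00 CPM over the 40 libraries. With siControl against DMSO, 0 of the 12 were called higher and 2 lower in sgIGF2BP2 cells, against 10.2% and 8.16% of all tested genes. In sgIGF2BP3 cells 1 was higher and 1 lower, against 10.9% and 8.54%. Changes were positive for 6 of the 12 and negative for 6 in each line. ATF4, the central factor of the integrated stress response, was lower with siControl in both lines, by -0.22 (SE 0.037, edgeR adjusted p = 5.17e-06) and -0.11 (SE 0.037, edgeR adjusted p = 0.0346). The ATF4 call in sgIGF2BP3 cells was lost in 6 of 8 fits that left out 1 library, all but those without replicate 2 of DMSO and replicate 3 of siControl (up to 0.108).

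IGF2BP proteins are known to favour the letters GGAC, in which the adenosine can be methylated, and CAT (CAU in RNA), so the sense strand of each principal transcript was searched for both, and the motifs do not overlap each other in letters except by a shared C. Median GGAC density was 4.66 per kb for the 17 genes that fell after siIGF2BP2, 2.71 for the 30 that did not pass and 3.76 over 11423 tested genes with a transcript. For CAT the medians were 13.7, 15.6 and 14.9 per kb. Median transcript length was 3055, 2656 and 3164 bases, and median GC content 47.6%, 45.3% and 49.2%, in the same order. The ranges overlapped: GGAC density ran from 1.13 to 10.5 per kb among the genes that fell and from 0 to 7.54 among those that did not pass. EIF2D, which rose, had 5.49 per kb. The medians were also taken for siControl against DMSO in sgIGF2BP2 cells, where neither IGF2BP gene was targeted by siRNA. There GGAC density was 4.66 per kb for the 5 higher genes, 2.61 for the 9 lower and 3.76 for the 34 not called. Whether GGAC density has a part in any of these changes was not tested.

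EIF3B had the densest GGAC, 10.5 per kb (32 in the transcript), and EIF1AX, which fell most, the sparsest of the genes that fell, 1.13 per kb (5 in the transcript). The 60-base coding stretches with the most GGAC are shown for these genes and for EIF4G1 (6.34 per kb, 35 in the transcript). They are from GENCODE 29 (GRCh38), with GGAC in capitals and positions counted from the A of the start codon.
EIF3B, coding positions 424 to 483, plus strand of chromosome 7: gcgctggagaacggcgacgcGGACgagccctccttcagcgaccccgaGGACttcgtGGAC
EIF4G1, coding positions 3477 to 3536, plus strand of chromosome 3: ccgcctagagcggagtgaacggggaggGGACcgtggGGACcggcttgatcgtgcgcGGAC
EIF1AX, coding positions 77 to 136, minus strand of chromosome X: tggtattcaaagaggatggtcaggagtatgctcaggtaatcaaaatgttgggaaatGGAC
The stretches of EIF3B and EIF4G1 hold 3 GGAC each and that of EIF1AX 1. The whole coding sequence held 26 GGAC in 2442 bases for EIF3B, 27 in 4797 for EIF4G1 and 2 in 432 for EIF1AX. A longer coding sequence offers more stretches to choose from, so the stretches do not compare densities. A match is a run of letters and does not show binding.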

How the data were processed

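The 51 genes and the lists were chosen with earlier results of these data known. The authors deposited 1 table of raw read counts per gene, whole numbers with a column for each of 40 libraries. Per the submitters' processing notes, bcl2fastq 2.20.0.422, STAR 2.7.5c and the build hg38 were used; the counting tool, annotation and strand setting are not given in the sources used here. Per the labels' protocols, libraries were directional, from poly(A) RNA, read as single 100-base reads. Identifiers were matched to GENCODE 29.

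Genes were filtered with filterByExpr by group (11428 kept, with 99.976% of counts) and scaled by TMM (factors 0.978 to 1.03). Over all 40 libraries, 1 coefficient per group was fitted with edgeR 4.0.16 (glmQLFit, glmQLFTest; R 4.3.3), with Benjamini-Hochberg adjustment per comparison over all genes tested. SE is the log2 fold change divided by the square root of F. CPM, counts scaled to a common library total, uses TMM-scaled library sizes. The chi-square per gene between replicates was 1.49 to 16.6, so no pair agreed within counting noise. Up to 6 higher and 6 lower called genes per comparison, with mean log2 CPM of at least 2, are named with all values; other genes were named after their values were seen. The script was tested on simulated data. Alternatives were DESeq2 1.42.0, other scaling, no filter, only the groups compared, a replicate block, a GC and length offset, a 1.2-fold threshold, leaving out genes beyond the guide sites, and leaving out each library.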

Additional observations from a re-analysis of the deposited data

Results flagged for a closer look

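In 7 of 125 pairs of a named gene and a group, 1 of the 4 libraries lay far from the other 3 by Dixon's test, where chance alone gives about 1 in 20, or 6.2. EIF1AX was at 103 CPM in siIGF2BP2 replicate 2 (others 96.0 to 97.2) and at 143 CPM in sgIGF2BP3 siControl replicate 4 (others 131 to 133). EIF2B2 was at 44.4 CPM in sgIGF2BP3 siControl replicate 1 (others 48.1 to 48.7), and EIF3D at 241 CPM in sgIGF2BP2 DMSO replicate 1 (others 251 to 252). EIF4A2 was at 179 CPM in sgIGF2BP2 Dox replicate 4 (others 161 to 164). EIF4G1 was at 674 CPM in that library (others 687 to 690) and at 613 CPM in siIGF2BP2 replicate 3 (others 657 to 661).

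The effects of 2 lines or pools differed by edgeR's quasi-likelihood test in 13 cases. The Dox effect in sgIGF2BP2 cells minus that in sgAAVS1 cells was 0.25 for EIF6, -0.16 for EIF4G2, -0.14 for EIF4B and -0.14 for EIF2S3 on the log2 scale. The Dox effect in sgIGF2BP3 cells minus that in sgAAVS1 cells was 0.25 for EIF1AD and -0.17 for EIF2S3. The siIGF2BP3 effect minus the siIGF2BP2 effect was 0.32 for EIF1AX, 0.20 for EIF2B2, 0.18 for EIF3A, EIF3B and EIF4G1, 0.12 for EIF4G2 and -0.23 for EIF2D.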

How the results depend on the processing

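None of the 78 calls of an initiation factor gene, nor any of the 17 printed changes of called genes outside the 51, reversed its sign under an alternative; genes that did not pass were not followed. Requiring a change above 1.2-fold with edgeR's glmTreat left 1 gene after siIGF2BP2, EIF1AX, and 0 genes in the other 9 comparisons, so the rest are called as different from 0 and not as larger than 1.2-fold. Of all tested genes that threshold left 4.48% after siIGF2BP2 and 0.0613% to 2.39% in the other comparisons. With the GC and length offset, 4 genes were called with Dox in sgIGF2BP3 cells (2 in the report), 1 after siIGF2BP3 (0), 0 for the Dox difference between sgIGF2BP3 and sgAAVS1 cells (2) and 11 for the difference between the siRNA pools (7). Of all tested genes the offset called 2.41%, 3.88%, 3.45% and 22.4% in these comparisons, in the same order. The shares without it are given above with each comparison. The same offset called 22 genes after siIGF2BP2 (18), EIF4EBP1 and EIF4EBP2 among them, and 40.1% of all tested genes. Fitting only the groups compared gave 2 after siIGF2BP3, and 2 for the Dox difference between sgIGF2BP2 and sgAAVS1 cells (4), as did no filter on low counts. Of all genes tested in these fits, 4.20%, 5.11% and, with no filter, 5.25% were called. DESeq2 gave 1 after siIGF2BP3, and called 2.58% of all tested genes there. Leaving out EIF3B, which lies beyond the IGF2BP3 guide site, left 1 with Dox in sgIGF2BP3 cells. In these cases the cause was not tested.

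Leaving out 1 library at a time gave 6 to 10 genes with Dox in sgAAVS1 cells, 6 to 12 in sgIGF2BP2 cells and 1 to 2 in sgIGF2BP3 cells. It gave 17 to 23 after siIGF2BP2 and 0 to 0 after siIGF2BP3. For the Dox differences it gave 2 to 7 in sgIGF2BP2 cells (7 without sgAAVS1 DMSO replicate 4) and 0 to 5 in sgIGF2BP3 cells (0 when sgIGF2BP3 Dox replicate 4 is left out and 5 when that same sgAAVS1 library is). For the difference between the siRNA pools it gave 5 to 8. For siControl against DMSO it gave 9 to 15 in sgIGF2BP2 cells, with 9 without DMSO replicate 1 or siControl replicate 1, and 10 to 14 in sgIGF2BP3 cells. The shares of all tested genes were not taken for these fits.

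Replicates of 2 groups share numbers, and same-numbered libraries deviated together weakly at most (correlations from -0.090 to 0.092 over 7 comparisons). For siControl against DMSO in sgIGF2BP2 cells the correlations were 0.044 to 0.092, and all 4 libraries correlated best with their own number. In sgIGF2BP3 cells they were 0.0074 to 0.080 for that comparison, and 2 libraries did so. With the replicate number as a block, the counts were 9, 9 and 2 with Dox in sgAAVS1, sgIGF2BP2 and sgIGF2BP3 cells, 18 and 0 after siIGF2BP2 and siIGF2BP3, 4 and 2 for the Dox differences, 8 for the siRNA difference, and 15 and 13 for siControl against DMSO. Of all tested genes the block called 16.7%, 21.0%, 2.99%, 37.6%, 2.55%, 7.69%, 8.63%, 19.5%, 19.1% and 20.3%, in the same order. All 78 calls were kept under the block.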
